A study of Rattus norvegicus with 6 samples.

Results

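The C2H2 zinc finger genes described here are those that the deposited table of neonatal rat ventricular cardiomyocytes marks as family zf-C2H2 and lists under a placeholder name. A placeholder is a name that starts with LOC, RGD, AABR, AC and a digit, or NEWGENE, given to a gene model that had no curated symbol when the annotation was made. The rule found 121 such genes among 546 zf-C2H2 genes and 34510 genes in all. Names starting with AABR made up 64, LOC 43, AC 10 and RGD 4. The other zf-C2H2 genes were 368 with a symbol and 57 with no name at all. The rule itself reads annotation only, but this group of genes was proposed with earlier results of these data known.

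Heart muscle cells of newborn rats were cultured, and poly(A) RNA was sequenced in 3 libraries titled Bgal and 3 titled Trim28. The design text speaks of infection with an adenovirus that expresses TRIM28. Bgal is not spelled out in the labels, nor is the virus given to those cells, and dose, time, strain and batch are not listed either. They also do not say that the libraries of a group came from separate cultures or animals, so p-values reflect no more than how these 6 libraries scatter, possibly for technical reasons.

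C2H2 zinc finger proteins bind DNA through a row of small zinc-holding loops, and many of them carry a KRAB box at the other end. The KRAB box recruits TRIM28, which in turn brings the histone methyltransferase SETDB1 and HP1 proteins, and chromatin at the bound site is silenced. KRAB zinc finger genes multiply by local duplication, stand in clusters of near copies, and are best known for holding transposable elements silent. TRIM28 and SETDB1 are also known to sit on the zinc finger gene clusters themselves.

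Trim28 stood at 81.6, 87.8 and 77.6 FPKM in Bgal and at 2923, 2890 and 980 FPKM in Trim28. FPKM is the number of fragments per kilobase of gene, scaled to the total of the library. The groups are far apart, and the third Trim28 library carried the least of its group. Reads assigned to genes ranged from 26146166 to 34593292 per library. Among 10 cardiomyocyte markers 4 rose and 4 fell, and their summed level ran from 21047 to 23683 FPKM in Bgal and from 25361 to 26803 FPKM in Trim28. Markers of several other cell types also differed between the groups. Of 10 fibroblast markers 8 rose and 0 fell (summed 777 to 831 against 1267 to 1331 FPKM), of 8 mural markers 7 rose and 0 fell (761 to 1017 against 1620 to 1718), and all 7 tested leukocyte markers of 9 rose (30.7 to 31.9 against 70.8 to 73.2). Of 8 endothelial markers 4 were tested, of which Eng and Tek rose, Kdr fell and Egfl7 did not pass, and Cldn5 was at 0 in every library. Their summed level (41.1 to 49.4 against 92.1 to 94.9 FPKM) was mostly that of Eng, at means of 33.0 and 82.3 FPKM, while Kdr stood at 8.07 and 6.06 FPKM. In such bulk samples, fewer cells of a type and less RNA per cell cannot be told apart. The part of the cell makeup in the results on zinc finger genes was not tested.

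Most of the placeholder-named genes were weakly expressed. In all 6 libraries 18 of the 121 were listed at 0, and 33 more stayed under the filter of at least 0.5 FPKM in at least 3 libraries, none with a mean above 0.345 FPKM. The 70 that were tested had means of 0.446 to 19.2 FPKM over the 6 libraries. Among them 13 were under 1 FPKM, 41 between 1 and 5, and 16 above 5. A tested member carried a median of 175 reads per library, so small differences in the lower members could not be detected at this depth. Every tested member reached 0.5 FPKM in at least 1 library of each group, although 10 had at least 1 Trim28 library below it. Some of these passed the filter mainly through Bgal. AABR07069454.1, which is among the falls below, stood at 0.954, 0.846 and 1.18 FPKM in Bgal and at 0.480, 0.426 and 0.591 FPKM in Trim28.

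More of the placeholder-named genes fell than rose in the Trim28 libraries. Of the 70 tested, 21 fell, 5 rose and 44 did not pass (limma, adjusted p over all 14808 tested genes). Over all tested genes 21.1% fell and 20.1% rose, 41.2% in all, while 21 of 70 and 5 of 70 members did (7.14% for the rise). With all 6 libraries the share that fell was above that of all genes and the share that rose was below it. The median log2 difference of FPKM + 1 was -0.23 over the tested members and -0.02 over all tested genes. The members' median was -0.10 without a filter on low values and -0.37 with limma-voom on the recovered reads. Differences below 0 were found in 54 of the 70 members, or 77.1%, against 52.3% of all tested genes. The summed level of the 121 genes was 282, 269 and 288 FPKM in Bgal and 224, 228 and 232 FPKM in Trim28, so the groups did not overlap. The excess of falls over the background depended on the libraries used. Without Bgal replicate 1, 12 members fell, or 17.1%, against 16.6% of all tested genes. Without Trim28 replicate 1 or 2 the number was 13, or 18.6%, against 16.8% and 17.2%, and without Bgal replicate 3 it was 14 of 70, against 17.9%. With no filter, 13.6% of 103 members and 11.6% of all genes fell. In these fits the share of members that fell was near the background. The members' median changed little when each library was left out, at -0.22 to -0.26 against -0.015 to -0.020 over all tested genes. The number that rose was 2 without Bgal replicate 1 (2.86%, against 15.7% of all tested genes). It was 3 (4.29%) without Bgal replicate 2, Trim28 replicate 1 or Trim28 replicate 2, against 17.7%, 15.7% and 16.0%. The share that rose stayed below the background in each of these fits.

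**Figure D1:**
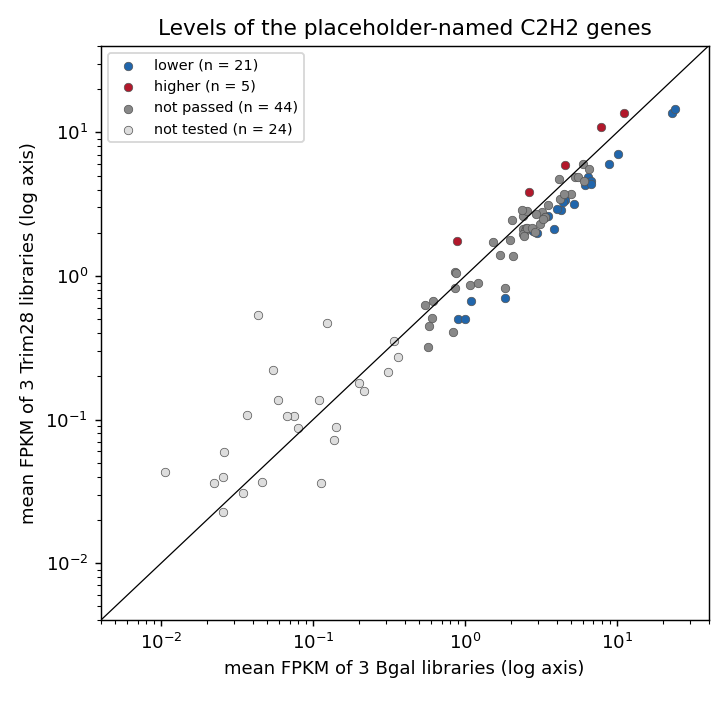
Mean FPKM of each placeholder-named C2H2 gene in the 3 Bgal libraries (x) and the 3 Trim28 libraries (y), both on log axes, coloured by the outcome of the limma test. The line marks equal levels, the 27 members at 0 in a group are not drawn, and most of the 70 tested members lie below the line.

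The decline was seen in each Trim28 library. As deviations from the mean of all 6 libraries on the log2(FPKM + 1) scale, the member medians were 0.14, 0.06 and 0.11 for Bgal and -0.13, -0.14 and -0.09 for Trim28. The Trim28 value nearest to 0 was that of the library with 980 FPKM of Trim28. In members with a listed KRAB box the Trim28 medians were -0.138, -0.151 and -0.142, so there it was not the nearest. In members without one they were -0.133, -0.0988 and -0.067. Over all tested genes the medians of the 6 libraries lay between -0.01 and 0.01, and the same library was the nearest to 0 of its group (-0.0016). A relation to the level of Trim28 was not tested.

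A KRAB box was listed for 43 of the 121 members in the description column of the deposited table, and 28 of these were tested. Of the 28, 8 fell (28.6%, against 21.1% of all tested genes) and 0 rose (against 20.1%), and 25 had a difference below 0 (89.3% against 52.3%). The 3 above 0 were LOC102546648, LOC102556967 and AABR07005779.3, at log2 differences of 0.10, 0.01 and 0.14, none of which passed. The summed level of the 43 genes was 107, 107 and 114 FPKM in Bgal and 80.4, 81.2 and 86.4 FPKM in Trim28, without overlap. Of the 42 tested members with no KRAB box listed, 13 fell (31.0%) and 5 rose (11.9%, against 20.1% of all tested genes). The share that fell was no lower than with the box, and every member that rose was one without it. Biotype differed as well, since all 28 tested KRAB members were protein coding. Of 65 tested protein-coding members 2 rose (3.08%), and of 5 of other biotypes 3 rose. The part of biotype was not tested. The median log2 difference of the 42 members was -0.23, the same as that of the KRAB members at this rounding. The absence of a listed KRAB box does not show that the protein lacks one, since 29 of the 121 rows named neither a KRAB box nor a zinc finger domain.

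The zf-C2H2 genes outside the placeholder names were divided in the same way. Among named genes with a KRAB box 19 of 63 tested fell and 0 rose, with a median of -0.21, while among named genes without one 50 of 228 fell and 38 rose, with a median of -0.02. Among genes without a name, 4 of 13 with a KRAB box fell and 0 rose, with a median of -0.25. Over all 104 tested zf-C2H2 genes with a listed KRAB box, 31 fell and 0 rose in limma. The share that fell was 29.8%, against 23.5% of the 293 tested zf-C2H2 genes without a listed box and 21.1% of all tested genes, and these differences were not tested. In these 104 genes 86 differences were below 0. The placeholder-named genes without a KRAB box differed from the named ones without it in their medians (-0.23 and -0.02), and that difference was not tested. Of the placeholder-named genes outside the family, 225 of 1476 tested rose and 245 fell, with a median of -0.04.

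**Figure D2:**
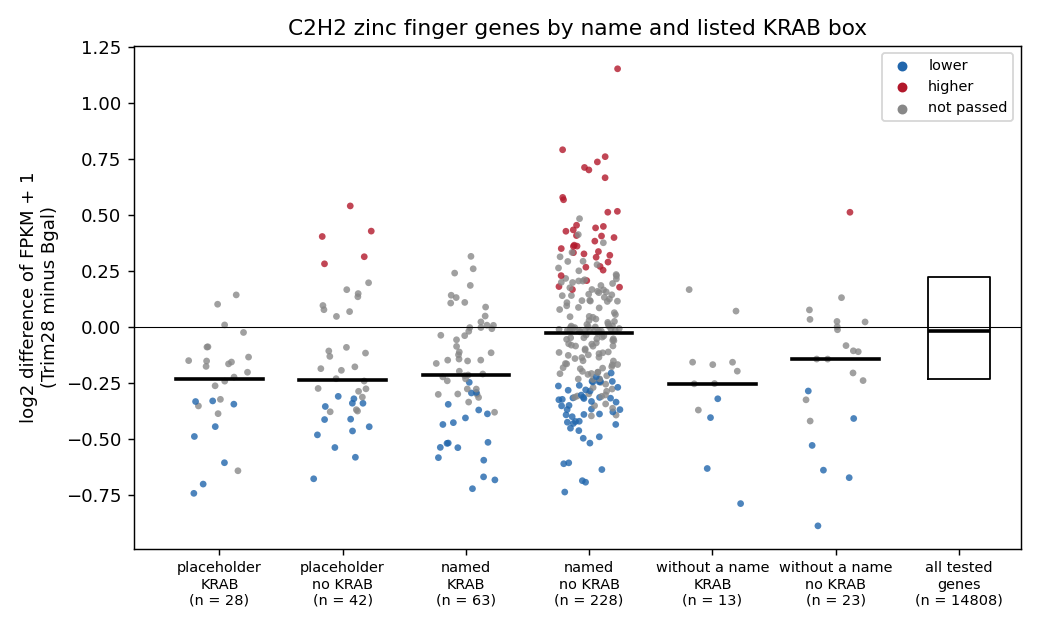
Log2 difference of FPKM + 1, Trim28 minus Bgal, for each tested zf-C2H2 gene by kind of name and by whether a KRAB box is listed, with the median as a bar; the box at the right gives the quartiles and median of all 14808 tested genes. No gene in the 3 KRAB groups is marked higher, and the medians of these groups are -0.23, -0.21 and -0.25.

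The partners of TRIM28 did not share one direction. Of 28 symbols, 27 were found in 28 rows, all tested, of which 6 fell and 3 rose, with a median of -0.02. Over all tested genes 21.1% fell and 20.1% rose, so the share of partners that fell was near the background. Atrx held 2 rows, 1 of which fell, at low means of 1.65 and 0.234 FPKM. The other, at 9.82 and 9.85 FPKM, did not pass. Setdb1, the methyltransferase that KRAB proteins reach through TRIM28, stood at 11.4 and 11.3 FPKM (limma adjusted p = 0.932). Cbx5, which encodes HP1 alpha, fell from 15.8 ± 1.28 to 11.0 ± 0.291 FPKM (SD, n = 3 each, limma adjusted p = 0.00148). The other HP1 genes, Cbx1 and Cbx3, did not pass (limma adjusted p of 0.108 and 0.374). Besides Cbx5 and the Atrx row, Rbbp7, Rbbp4, Hdac2 and Chd4 fell, while Tasor, Mphosph8 and Hdac1 rose.

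AABR07035107.1 (ENSRNOG00000000891, chromosome 12, 4737817 to 4741997, plus strand) is a KRAB gene whose closest Swiss-Prot entry in the table is mouse Znf431. It stood at 23.6, 21.2 and 24.0 FPKM in Bgal and at 13.3, 13.6 and 14.3 FPKM in Trim28. The groups were well apart, and this was the smallest p-value among the members, at a log2 difference of -0.70 (SE 0.06, limma adjusted p = 0.000254). Positions here are as the table gives them, and the sources used here do not name its genome build.

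LOC102556092 (chromosome 12, 37184763 to 37185548), which RefSeq now calls Zfp664, was the most abundant member. Its levels were 23.8, 19.8 and 28.2 FPKM in Bgal and 13.6, 14.6 and 15.3 FPKM in Trim28. All Trim28 values were below all Bgal values, 1.65-fold lower in the mean, although the Bgal libraries differed widely (limma adjusted p = 0.00357). AABR07033023.1 (chromosome 11, 1835185 to 1836897), which resembles Znf654, stood at 10.01, 9.57 and 11.04 FPKM in Bgal and at 7.36, 7.45 and 6.31 FPKM in Trim28. It fell 1.45-fold, with no overlap (limma adjusted p = 0.00407).

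LOC691170 (chromosome 7, 13318533 to 13337858) is a KRAB gene whose listed Swiss-Prot match is mouse Zfp809. ZFP809 is known in mice for bringing TRIM28 to the primer binding site of some retroviruses. LOC691170 stood at 8.81, 9.38 and 8.42 FPKM in Bgal and at 6.17, 5.76 and 6.19 FPKM in Trim28. The fall was 1.47-fold and the groups did not overlap (limma adjusted p = 0.00161). RefSeq names this locus 2610008E11Rikl. AC120712.4 and LOC103690166, the other members with the same match, did not pass (log2 differences of -0.39 and -0.24).

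AC130232.2 (chromosome 16, 19581812 to 19583386) stood at 6.87, 6.42 and 6.78 FPKM in Bgal and at 3.86, 3.90 and 5.26 FPKM in Trim28. It fell 1.54-fold, and the third Trim28 library was the nearest to Bgal (limma adjusted p = 0.00765). LOC102554315, now Zfp120 in RefSeq (chromosome 3, 145639155 to 145641654), stood at 3.01, 3.27 and 5.19 FPKM in Bgal and at 1.95, 2.01 and 2.40 FPKM in Trim28. Its fall was 1.80-fold with a wide spread in Bgal (limma adjusted p = 0.0261). This call was lost without Trim28 replicate 1 (limma adjusted p = 0.0743) and without Trim28 replicate 2 (0.0711).

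Of the 21 members that fell, 20 had all Trim28 libraries below all Bgal libraries, and AABR07001905.2 was the exception. The 21 were called on the same 6 libraries, which makes such a separation likely, so this is a description and not further support. Over all tested genes, 27.7% showed such a separation downward and 26.0% upward, and among the 70 tested members 26 and 6 did. The falls were small: means were 1.32-fold to 2.63-fold lower, and LOC501406 alone exceeded a 2-fold fall.

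The naming rule left out some further members that fell, named here with their values already known. RGD1566386, a KRAB gene matched to Zfp39, fell from 1.095 ± 0.0274 to 0.669 ± 0.0629 FPKM (SD, n = 3 each, limma adjusted p = 0.0368), and lost its call when any one library was left out. AABR07054578.1, matched to ZNF334, stood at 4.40 ± 0.457 in Bgal and 3.26 ± 0.0815 FPKM in Trim28 (limma adjusted p = 0.0218), and AABR07003176.1, which RefSeq calls Zfp788, at 2.81 ± 0.230 and 2.07 ± 0.0548 FPKM (0.0305). AC126572.1, matched to Znf12, stood at 3.51 ± 0.337 in Bgal and 2.61 ± 0.214 FPKM in Trim28 (limma adjusted p = 0.0335), and AABR07001905.2, with no match, at 6.44 ± 0.894 and 4.87 ± 0.532 FPKM (0.0492). AABR07054578.1 lost its call without Bgal replicate 1 or 2 or Trim28 replicate 1 or 2, and AABR07003176.1 without any library but Bgal replicate 1. AC126572.1 lost it without any library but Trim28 replicate 2, and AABR07001905.2 without Bgal replicate 1 or 3 or Trim28 replicate 1 or 2.

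**Figure D3:**
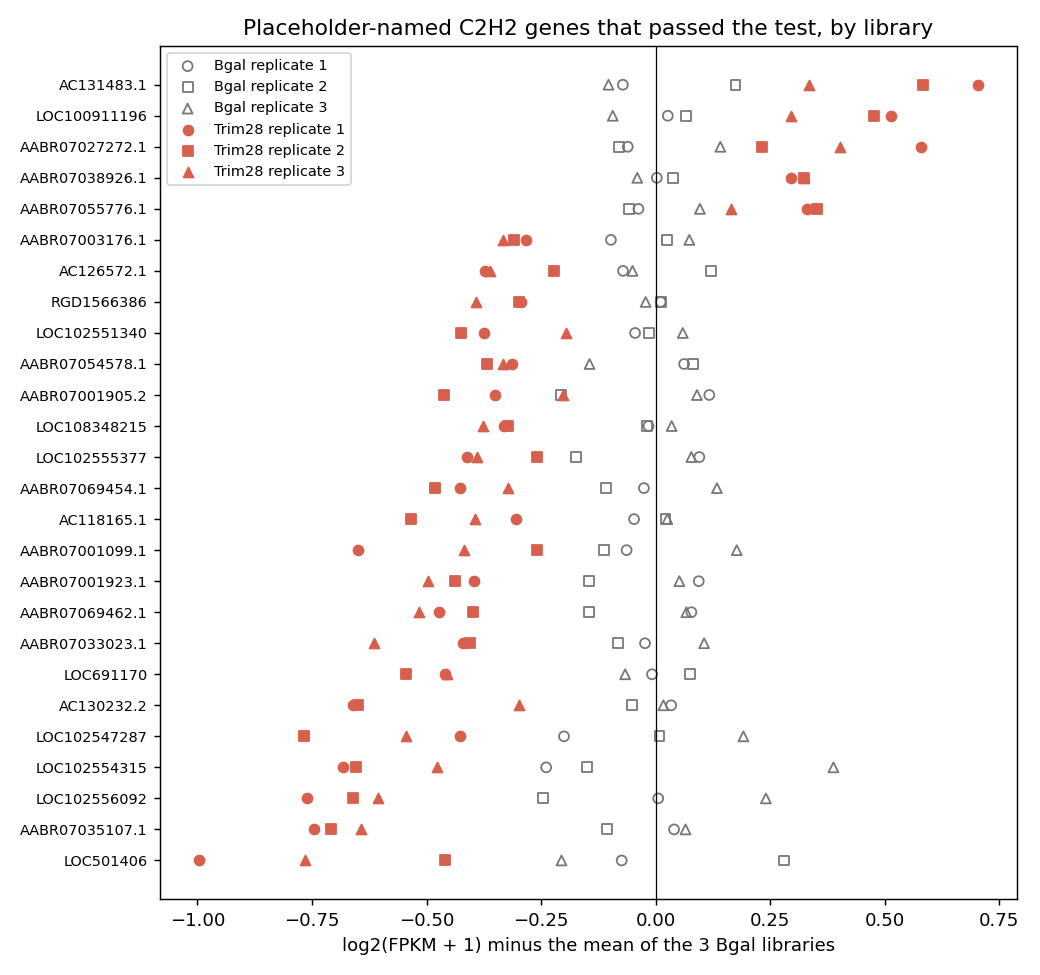
Values of log2(FPKM + 1) minus the Bgal mean for the 26 members that passed the test, 1 row per gene and 1 marker per library (open for Bgal, filled for Trim28). In 20 of the 21 lower rows and in all 5 higher rows the filled and open markers do not overlap, but the rows were chosen by the test on these libraries.

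Members that rose were few, and 3 of the 5 were listed as pseudogenes or long non-coding RNAs. AC131483.1 (chromosome 3, 15772108 to 15773444), a pseudogene that resembles the Kruppel-like factor gene Klf5, stood at 0.783, 1.11 and 0.744 FPKM in Bgal and at 2.05, 1.81 and 1.36 FPKM in Trim28. It rose 1.98-fold (limma adjusted p = 0.018). Klf5 itself, on chromosome 15, rose from 3.82 ± 0.336 to 9.79 ± 1.65 FPKM (SD, n = 3 each, limma adjusted p = 0.000519). AABR07027272.1 (chromosome 17, 22252020 to 22263289, minus strand), listed as lincRNA and matched to Hivep1, stood at 2.49, 2.45 and 3.02 FPKM in Bgal and at 4.44, 3.28 and 3.81 FPKM in Trim28. It lies on the same strand as Hivep1, with starts 26.8 kb apart, and Hivep1 rose from 7.12 ± 0.953 to 12.2 ± 0.227 FPKM (SD, n = 3 each, limma adjusted p = 0.00101). The table does not say how reads that fit both a member and its look-alike were assigned, so the values of these 2 members are uncertain.

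AABR07038926.1 (X chromosome, 64094947 to 64096840), an unprocessed pseudogene that resembles Zxdb, stood at 4.57, 4.71 and 4.41 FPKM in Bgal and at 5.83, 5.96 and 5.96 FPKM in Trim28. The rise of 1.30-fold was small against a narrow spread (limma adjusted p = 0.00968). LOC100911196, now Znf865 in RefSeq (chromosome 1, 72363276 to 72366455, minus strand), stood at 7.98, 8.24 and 7.27 FPKM in Bgal and at 11.6, 11.3 and 9.83 FPKM in Trim28. It rose 1.39-fold (limma adjusted p = 0.00541), while the row named Zfp865 next to it on the other strand was not called, at 2.82 ± 0.374 and 2.12 ± 0.441 FPKM (SD, n = 3 each, limma adjusted p = 0.119). AABR07055776.1 (chromosome 7, 9974625 to 9976367) stood at 10.7, 10.6 and 11.9 FPKM in Bgal and at 14.1, 14.4 and 12.5 FPKM in Trim28, a rise of 1.24-fold (limma adjusted p = 0.0211).

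The calls of 3 members that rose were lost without some of the libraries. AC131483.1 lost its call without Bgal replicate 1 or 3 or Trim28 replicate 1 or 2 (limma adjusted p of 0.0543 to 0.0606). AABR07027272.1 lost it without Bgal replicate 1 or 2 or Trim28 replicate 1 or 3 (0.0631 to 0.092), and AABR07055776.1 without Bgal replicate 1 or 2 or Trim28 replicate 1 or 2 (0.062 to 0.0707). Among all 26 members that passed, 12 did so under each of the 12 alternative analyses: AABR07001923.1, AABR07033023.1, AABR07035107.1, AABR07069462.1, AC118165.1, AC130232.2, LOC102547287, LOC102556092, LOC501406 and LOC691170 fell, and AABR07038926.1 and LOC100911196 rose. AC118165.1, which fell from 2.98 ± 0.112 to 2.00 ± 0.238 FPKM (SD, n = 3 each), is named only because its values were seen. It shares part of its span with AABR07002683.1 on its strand and with Zfp111 on the other. The other 14 lost the call without at least 1 library. Calls kept numbered 14 without Bgal replicate 1, 18 without Bgal replicate 2, 16 without Bgal replicate 3, 12 without Trim28 replicate 1, 16 without Trim28 replicate 2 and 19 without Trim28 replicate 3. In the 26 members, 0 of the alternative values changed sign, which is likely for members chosen because they passed with the same libraries.

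By position, the members stood mainly on chromosome 1, with 53 of the 121, then on chromosomes 5 (16), 7 (15), 3 and 12 (7 each). Joining members whose neighbouring starts lie within 1 Mb gave 18 clusters of at least 2, which held 81 members and left 40 alone. The largest held 12. On chromosome 1, 10 of 32 tested members fell and 1 rose. This was near the share of all members, of which 21 of 70 tested fell and 5 rose. Over all tested genes 21.1% fell and 20.1% rose. On chromosome 12, 4 of 5 fell, and on chromosome 5, 0 of 6 passed in limma. These 5 and 6 genes are too few for a comparison, and differences between chromosomes were not tested.

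The cluster at chromosome 1, 37802592 to 38586563, held 6 members, all on the minus strand and all tested. For 4 of them Znf728 was the listed match and for the other 2 Zfp58, and 5 had a KRAB box. Of these 4 fell, and all 6 differences were below 0, with a median of -0.39. RefSeq, in build GRCr8, gives 300 bases around the annotated start for 5 of the 6, all on the minus strand of chromosome 1. These sequences are taken here as promoters. That of LOC102551340 ends in bases that encode part of a KRAB box, so it may lie inside the gene. The 5 sequences are shown because this cluster had the most members that fell. The cluster at chromosome 1, 60884761 to 63293635, tied with it at 4, and the first by position was taken. A shared stretch was searched for only after that choice, and 4 of the sequences share one. Capitals mark that stretch, ACTACANNTCCCA or its reverse complement TGGGANNTGTAGT, where N is any base. The coordinates beside them are of GRCr8 and cannot be set against those of the deposited table.
LOC680200 (RefSeq Zfp455l1), GRCr8 chr1:36772453-36772752: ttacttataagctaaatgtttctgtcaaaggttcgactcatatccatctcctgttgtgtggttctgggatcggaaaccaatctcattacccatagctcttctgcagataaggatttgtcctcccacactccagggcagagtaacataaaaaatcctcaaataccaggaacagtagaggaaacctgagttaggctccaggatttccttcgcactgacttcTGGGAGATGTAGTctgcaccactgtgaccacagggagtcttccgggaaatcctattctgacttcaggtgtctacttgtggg
AABR07001099.1 (RefSeq Zfp874b), GRCr8 chr1:36842656-36842955: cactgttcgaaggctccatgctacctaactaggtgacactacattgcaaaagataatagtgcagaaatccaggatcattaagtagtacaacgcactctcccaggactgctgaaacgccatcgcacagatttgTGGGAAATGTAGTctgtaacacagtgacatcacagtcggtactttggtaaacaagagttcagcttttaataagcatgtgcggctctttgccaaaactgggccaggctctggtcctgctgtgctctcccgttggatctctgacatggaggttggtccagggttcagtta
LOC102547287, GRCr8 chr1:36891654-36891953: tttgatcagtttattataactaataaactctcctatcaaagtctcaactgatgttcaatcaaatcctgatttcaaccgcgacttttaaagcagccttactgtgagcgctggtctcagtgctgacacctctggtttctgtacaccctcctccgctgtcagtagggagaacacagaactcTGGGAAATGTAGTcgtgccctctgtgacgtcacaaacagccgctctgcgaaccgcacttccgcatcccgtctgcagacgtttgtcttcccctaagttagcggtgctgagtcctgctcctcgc
LOC102549842 (RefSeq Zfp748), GRCr8 chr1:36919746-36920045: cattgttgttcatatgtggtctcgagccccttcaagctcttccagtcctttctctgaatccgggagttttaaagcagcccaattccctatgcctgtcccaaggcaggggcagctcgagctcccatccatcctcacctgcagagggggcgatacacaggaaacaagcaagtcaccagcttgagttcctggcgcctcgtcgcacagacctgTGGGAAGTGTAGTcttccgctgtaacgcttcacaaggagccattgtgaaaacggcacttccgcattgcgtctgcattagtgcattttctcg
LOC102551340 (RefSeq Zfp729), GRCr8 chr1:37007763-37008062: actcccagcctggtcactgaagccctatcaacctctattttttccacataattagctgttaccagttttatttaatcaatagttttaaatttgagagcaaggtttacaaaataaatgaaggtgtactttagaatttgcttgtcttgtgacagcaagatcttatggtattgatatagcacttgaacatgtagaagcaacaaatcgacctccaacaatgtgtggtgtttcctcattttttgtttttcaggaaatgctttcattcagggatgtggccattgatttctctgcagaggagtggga

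The shared stretch stood in the promoters of LOC680200, AABR07001099.1, LOC102547287 and LOC102549842. It was not in the sequence of LOC102551340, which had 37.0% GC and 1 CpG and may not be its promoter. The stretch is the one of 13 bases with 2 free positions found in most of these 5 sequences, its form set after reading them. It was then searched on both strands, so its presence in these 4 is not a test. Of the 31 members matched to a RefSeq promoter, 7 held it, the other 3 being LOC102548695, AABR07002868.1 and LOC100909657. Of all 27457 promoters of the same length, taking 1 per gene, 411 held it, or 1.5%. As background, the letters resemble part of an element bound by the zinc finger protein ZNF143 at many promoters, but a match is a description and not a site. Among the 9 matched members that fell, 2 held it, AABR07001099.1 and LOC102547287. Both are among the sequences the stretch was taken from, so this count is not a test either. The matched promoters of LOC102552527 and LOC108348215, in the tied cluster, did not hold it. None of the members that rose was matched to a promoter. CCAAT stood in 12 of the 25 tested members matched and in 37.7% of all promoters, and TATAAA in 2 of the 25 and in 14.3% of all promoters, each on either strand.

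Of the genes with these promoters, LOC102547287 stood at 4.39, 5.23 and 6.07 FPKM in Bgal and at 3.61, 2.64 and 3.25 FPKM in Trim28, with no overlap. It fell 1.65-fold (limma adjusted p = 0.0113), and its span overlaps that of LOC102549842 on the same strand, so reads may be shared between them. AABR07001099.1, named after a look at its values, stood at 5.86, 5.63 and 7.11 FPKM in Bgal and at 3.57, 4.99 and 4.36 FPKM in Trim28 (limma adjusted p = 0.0262). LOC102551340 stood at 4.36, 4.48 and 4.76 FPKM in Bgal and at 3.27, 3.12 and 3.83 FPKM in Trim28, again apart (limma adjusted p = 0.0241). LOC102551340 lost its call without any one of the 3 Bgal libraries or without Trim28 replicate 1 or 2 (0.0532 to 0.0752), and AABR07001099.1 lost it without Bgal replicate 1 or 3 or Trim28 replicate 1 or 3. LOC501406, which has no RefSeq promoter here and is called the pseudogene Zfp273l-ps1 by RefSeq, stood at 1.66, 2.40 and 1.43 FPKM in Bgal and at 0.405, 1.04 and 0.648 FPKM in Trim28. Its fall of 2.63-fold had the largest log2 difference of the members, -0.74 with an SE of 0.18 (limma adjusted p = 0.0153), on 17 to 105 reads per library. LOC680200 and LOC102549842 had differences of -0.17 and -0.32 and did not pass. As a sum, the 6 genes gave 20.1, 21.8 and 24.1 FPKM in Bgal and 14.2, 14.6 and 15.5 FPKM in Trim28. The 4 tested genes of other families within the span had a median of 0.04, with 1 higher and 0 lower. Such genes varied between clusters. On chromosome 1 their median was -0.02 over 2 genes at 60884761 to 63293635 and -0.33 over 5 at 84530669 to 84950210. It was -0.45 over 7 at 87563975 to 88558696, and 0.10 over 8 on chromosome 7 at 9897983 to 10896447. Members and their neighbours were not compared by a test.

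**Figure D4:**
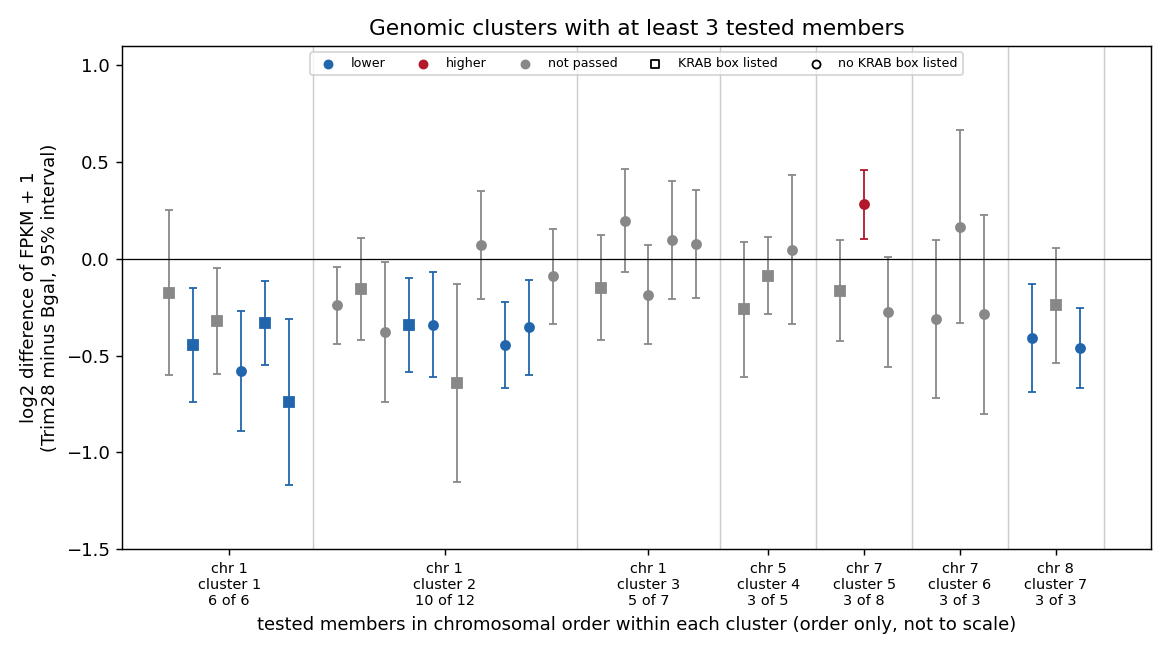
Log2 difference of FPKM + 1 with its 95% confidence interval for the tested members of the 7 clusters with at least 3 tested members, in chromosomal order, squares for a listed KRAB box; the last line under each cluster gives tested members of all members. In clusters 1 and 2 on chromosome 1, 15 of 16 points lie below 0, while in cluster 3 on the same chromosome 3 of 5 lie above it.

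The largest cluster, at chromosome 1, 60884761 to 63293635, held 12 members, of which 10 were tested, 4 fell and 0 rose. Its median was -0.34, and 9 of the 10 differences were below 0. For 5 of the 12 members Zfp54 was the listed match. AABR07001923.1 stood at 4.65, 3.78 and 4.48 FPKM in Bgal and at 3.02, 2.91 and 2.75 FPKM in Trim28, 1.49-fold lower and apart (limma adjusted p = 0.00865). LOC108348215, a KRAB gene, stood at 0.880, 0.875 and 0.947 FPKM in Bgal and at 0.511, 0.520 and 0.464 FPKM in Trim28 (limma adjusted p = 0.0332). LOC102555377 stood at 4.32, 3.42 and 4.26 FPKM in Bgal and at 2.75, 3.16 and 2.80 FPKM in Trim28 (limma adjusted p = 0.0309). LOC108348215 lost its call when any one library was left out (limma adjusted p of 0.0666 to 0.0938), and LOC102555377 without Bgal replicate 1 or 3 or Trim28 replicate 1 or 3 (0.0728 to 0.103). The 7 other tested zf-C2H2 genes in the span included Zfp54, which fell from 2.82 ± 0.0765 to 1.68 ± 0.197 FPKM (SD, n = 3 each, limma adjusted p = 0.00468). Of these 7, 3 fell, 0 rose and 6 were below 0, with a median of -0.20. The members' sum was 34.2, 28.6 and 34.5 FPKM in Bgal and 26.3, 24.4 and 24.3 FPKM in Trim28.

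Another cluster on the same chromosome was split in sign. At 84530669 to 84950210, 7 members, 5 of them matched to Zfp59, gave 5 tested genes, of which 0 passed, 2 were below 0 and the median was 0.08. AABR07002774.4, AABR07002774.2 and LOC100909824, which had the smallest p-values among these members, stood at log2 differences of 0.20, -0.18 and -0.15 (limma adjusted p of 0.202, 0.215 and 0.34). The sum of the 7 was 9.64, 9.05 and 9.24 FPKM in Bgal and 9.10, 9.18 and 9.49 FPKM in Trim28, so these groups overlapped. The 1 other tested zf-C2H2 gene in the span, Zfp780b-ps1, fell (log2 difference -0.58, limma adjusted p = 0.00526). The 10 members at chromosome 1, 87563975 to 88558696, were nearly silent: 2 were listed at 0, none was tested, and they summed to between 0.429 and 0.708 FPKM in every library. Their listed matches included ZNF383, ZNF790 and Zfp30.

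On chromosome 5, 7 members at 77266842 to 78064634 stood on the minus strand, 5 of them matched to Zfp37 and all but AABR07048419.2 listed as unprocessed pseudogenes. Of these, 2 were tested and neither passed in limma. Another 5, at 163593658 to 164502469, were all matched to Zfp54, like the large cluster on chromosome 1. Here 3 were tested and 0 passed. The 1 other tested zf-C2H2 gene in that span, which has no name, fell (log2 difference -0.28, limma adjusted p = 0.0294). LOC500584 stood at 5.25 ± 0.298 and 4.89 ± 0.411 FPKM (SD, n = 3 each, log2 difference -0.09, 95% confidence interval -0.29 to 0.11, limma adjusted p = 0.445). LOC691254, which RefSeq calls Rex2, stood at 0.573 ± 0.136 and 0.318 ± 0.192 FPKM (limma adjusted p = 0.203), on 7 to 42 reads per library, and RGD1565622 at 0.616 ± 0.221 and 0.674 ± 0.265 FPKM (0.839).

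On chromosome 7, 8 members at 9897983 to 10896447 gave 3 tested genes. AABR07055776.1 rose, as given above, while LOC100910577 and AABR07055834.1 stood at log2 differences of -0.16 and -0.27 and did not pass (limma adjusted p of 0.281 and 0.11). AABR07055834.1 passed without Bgal replicate 2 (0.0395). The 3 members at 15279611 to 15852930 did not pass: AC109942.1 at -0.31, AABR07055919.1 at -0.29 and AABR07055917.1 at 0.17 (limma adjusted p of 0.194, 0.336 and 0.565). The first Trim28 library of AABR07055917.1 was low, at 1.60 FPKM against 3.62 and 3.45, and without it the gene passed as higher (0.0181).

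On chromosome 8, 3 members at 23178097 to 23292682 were tested and all were below 0. AABR07069462.1 stood at 7.15, 5.98 and 7.09 FPKM in Bgal and at 4.57, 4.86 and 4.39 FPKM in Trim28, 1.46-fold lower with no overlap (limma adjusted p = 0.00526). AABR07069454.1, listed as lincRNA and matched to ZNF564, stood at 0.954, 0.846 and 1.18 FPKM in Bgal and at 0.480, 0.426 and 0.591 FPKM in Trim28 (limma adjusted p = 0.0288). It lost its call without Bgal replicate 1 or 3 or Trim28 replicate 1 or 2 (0.0728 to 0.0949). LOC103690166, now Zfp599 in RefSeq, has AABR07069462.1 within its span on the same strand. It stood at 2.43 ± 0.466 and 1.89 ± 0.163 FPKM (SD, n = 3 each, limma adjusted p = 0.168), and passed without Bgal replicate 3 (0.0497).

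Many placeholder names cover genes that have since been named. RefSeq's GRCr8 annotation held 36 of the 121 by gene number, symbol or synonym, all on the same chromosome, and 33 of these carry another symbol there. For 4 of them that symbol is also the name of another row of the table, LOC103691005 (Zfp51), AABR07002868.1 (Zfp84), LOC103690163 (Zfp420) and LOC102555083 (Zfp647), so the table splits such a gene between rows or holds a close copy. Shared matches were frequent: 52 members had the same Swiss-Prot match as another member, and 29 had none. Near copies can share reads, and the sources used here do not say how those were placed. Of the 26 members that passed, 3 overlapped another row of the table, namely LOC102547287, AC118165.1 and AABR07069462.1.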

How the data were processed

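RNA of 6 libraries of cultured neonatal rat ventricular cardiomyocytes, 3 titled Bgal and 3 titled Trim28, was sequenced after poly(A) selection, per the labels' protocols. The authors deposited 1 table of FPKM values, per the file headers, with gene position, length, biotype, description and transcription factor family. HISAT2 2.0.5 and DESeq2 are named in the submitters' processing notes. The sources used here name no counting tool, strand setting, treatment of reads that fit several genes, genome build or annotation release.

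Members were the zf-C2H2 genes with placeholder names. The members and the gene lists were chosen with earlier results of these data known. A gene needed 0.5 FPKM or more in 3 or more libraries, and was then tested on log2(FPKM + 1) with limma 3.58.1 (R 4.3.3, intensity trend, two-sided), with Benjamini-Hochberg adjustment over all 14808 tested genes and a threshold of 0.05. Differences on this scale understate the change of low genes. FPKM multiplied by length fell on whole multiples of 1 step per library for 100% of values within 0.01, which gave the reads per gene. Folds are ratios of mean FPKM. KRAB boxes and closest Swiss-Prot entries were read from the deposited descriptions. Clusters joined members with neighbouring starts within 1 Mb. Promoters and current symbols came from RefSeq (GRCr8).

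Members named in the text were the 10 largest rises and falls that passed, the 5 highest means, and up to 3 tested members per cluster with at least 3, by smallest p. The procedure was tested on simulated data. Alternatives were TMM scaling, limma-voom on the recovered reads, a filter of 0.1 FPKM or none, a pseudocount of 0.1, the replicate number as a block, leaving out each library, and other cluster distances. Protein sequences were not used here.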

Additional observations from a re-analysis of the deposited data

How the results depend on the processing

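The median log2 difference of the tested members was -0.23 and stayed below 0 under each alternative. It was -0.18 with a filter of 0.1 FPKM, -0.37 with limma-voom on the recovered reads, -0.10 without a filter and -0.34 with a pseudocount of 0.1. Leaving out each library in turn gave 12 to 17 members lower and 2 to 4 higher, against 21 and 5. That is 17.1% to 24.3% lower, beside 16.6% to 19.7% of all tested genes in the same fits, so the lower end is at the background. For the rises it is 2.86% to 5.71%, beside 15.7% to 18.4% of all tested genes. Limma-voom gave 27 lower (38.6%, against 23.2% of all tested genes) and 5 higher (7.14% against 20.7%). No filter gave 14 lower (13.6% against 11.6%) and 6 higher (5.83% against 11.7%). RGD1565622, which did not pass, went from 0.05 to -0.044 without Bgal replicate 2 and to -0.070 without Trim28 replicate 3, within a range of -0.070 to 0.16 when each library was left out. With the replicate number as a block, 18 members were lower (25.7%, against 19.7% of all tested genes) and 4 higher (5.71% against 18.5%). The labels do not say that the numbers pair the libraries, and the correlations of deviations were -0.0164, 0.135 and 0.00915. The number of clusters was 16 at 0.5 Mb and 17 at 2 Mb, against 18. The planned edgeR and DESeq2 fits were not run, because the deposited unit is FPKM. Members with few reads limit what could be detected.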

Other observations

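Without the filter on low values, 2 members outside the tested set passed as higher. AC126572.3 had 9, 11 and 10 reads in Bgal and 47, 28 and 22 in Trim28 (limma adjusted p = 0.0352). AC099444.1 had 1, 0 and 2 reads in Bgal and 6, 13 and 10 in Trim28 (limma adjusted p = 0.0144). Neither reached 0.5 FPKM in 3 libraries.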
